A study of Danio rerio with 4 samples.

Results

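Heat shock proteins and chaperones were measured in whole guts of 4 adult zebrafish. Of the 14781 genes in the deposited count table, 97 were taken by name: heat shock proteins, HSF transcription factors, J-domain (dnaj) cofactors, BAG cofactors, subunits of the cytosolic chaperonin TRiC, HSP90 co-chaperones, alpha B crystallins and the serpinh1 pair. The endoplasmic reticulum (ER) chaperone genes hspa5 and hsp90b1 match the name pattern but were left out by rule. So were hspbp1 and hspbap1, genes for proteins that interact with heat shock proteins. Homozygous irf8 mutants (2 fish, allele st95) were set against heterozygous irf8 mutants (2 fish, same allele), all adult, untreated and sampled as intestine; every fish carries at least 1 mutant copy and no wild-type gut is among the libraries. The gene irf8 encodes a transcription factor that macrophages need to develop. A whole gut mixes epithelium, muscle, vessels, blood and attached pancreas. Each library is 1 fish, so the p-values rest on 2 fish a group, with a spread that edgeR partly shares across genes.

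Chaperones bind unfolded proteins and release them folded, usually in cycles of ATP hydrolysis. HSP70 proteins work with J-domain proteins, which deliver clients and start hydrolysis, and with nucleotide exchange factors of the HSP110 and BAG families, which end the cycle. HSP90 matures receptors and kinases with co-chaperones, the ring-shaped TRiC folds actin and tubulin, and small heat shock proteins hold clients until HSP70 takes them. When unfolded protein builds up, HSF1 raises transcription of inducible members such as hsp70l and dnajb1 genes, which makes these transcripts a common readout of cell stress. The name pattern reaches beyond the cytosol. By compartments assigned from general knowledge after values were seen, 10 of the 97 genes were placed in the ER lumen or the ER membrane facing it. Another 8 were placed in mitochondria, and the rest in the cytosol, the nucleus or no compartment. The name pattern also took tcp11l1 and tcp11l2, which share only the start of a name with tcp1 and are not chaperonin subunits.

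Library totals ranged from 6350840 to 10391963 counts. The targeted gene irf8 had 25 and 25 counts in homozygous libraries and 30 and 50 in heterozygous libraries (log2 fold change -0.82 ± 0.58, SE; edgeR adjusted p = 0.729), which does not check the genotype, since a mutant allele can still be transcribed. Listed pancreas genes took 4.09% and 0.427% of counts in homozygous libraries and 1.32% and 29.6% in heterozygous libraries, so heterozygous replicate 2 stands apart. That library was also the highest for striated muscle genes, at 0.0315% of counts against 0.00176% to 0.0142% in the other 3, and for stroma and endothelium genes, at 0.154% against 0.0264% to 0.0300%. Markers of enterocytes, the absorptive cells of the gut, were present in every library. They took 6.93% and 7.19% of counts in homozygous and 10.3% and 3.25% in heterozygous libraries. Of 14 tested, 9 had log2 fold changes above 0. DESeq2 called 3 higher and 1 lower, beside 0.742% of all genes it adjusted, and edgeR called 0. The median of these 14 markers was 0.85, but 0.23 without homozygous replicate 2 and 1.34 without heterozygous replicate 1. In such bulk tissue, fewer cells of a type and less RNA per cell cannot be told apart.

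The comparison asks which chaperone transcripts differ in the gut when irf8 function is lost. No member passed the test: edgeR's quasi-likelihood test called 0 of 73 tested members, and 0% of all 9701 tested genes, at an adjusted p of 0.05. Members leaned toward lower values in homozygous guts, with 46 of 73 log2 fold changes below 0 and 27 above. Of all 9701 tested genes, 5169 were below 0. The members' median was -0.27 beside -0.05 over all genes tested. These medians were taken again over the same genes with 1 library left out. Without heterozygous replicate 1 they were -0.14 for the members and 0.05 over all genes. Without homozygous replicate 1 they lay closer together, at -0.19 for the members and -0.08 over all genes. Without homozygous replicate 2 they were -0.35 and -0.08, and without heterozygous replicate 2 they were -0.21 and 0.06. The homozygous pair was the lower one without overlap for 25 members (34.2%), where 19.3% of all tested genes were so ordered, and the higher one for 12 (16.4%), where 19.9% were. With heterozygous replicate 2 left out these counts were 38 (52.05%, beside 37.1% of all tested genes) and 22 (30.1%, beside 38.1%). With homozygous replicate 2 left out they were 36 (49.3%, beside 30.2%) and 22 (30.1%, beside 30.4%). With homozygous replicate 1 left out they were 34 (46.6%, beside 35.5%) and 18 (24.7%, beside 33.9%). With heterozygous replicate 1 left out they were 32 (43.8%, beside 37.7%) and 18 (24.7%, beside 35.2%). At an unadjusted p under 0.05 the test held 6 of 73 members (8.22%), 5 lower and 1 higher, beside 6.47% of all tested genes. DESeq2 called 1 of the 64 members it gave an adjusted p, hspa4a, beside 0.742% of all genes it adjusted. The smallest p an exact two-sided permutation test can reach with 2 libraries against 2 is 0.333, so no single gene was tested that way.

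**Figure D1:**
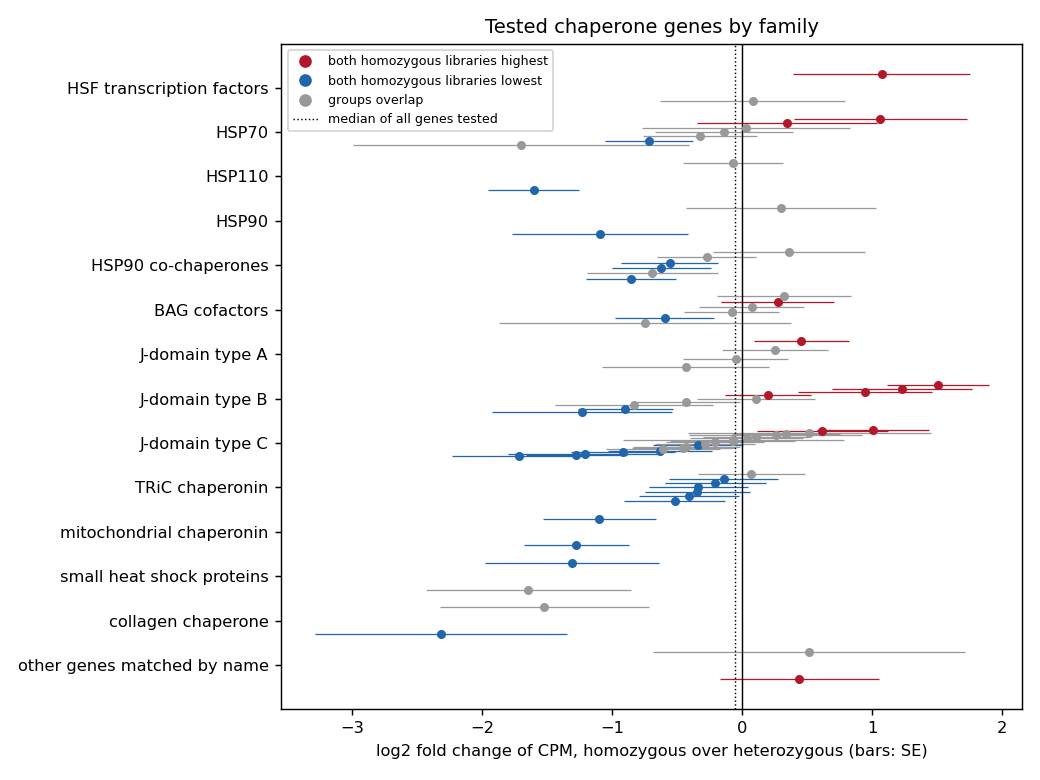
Log2 fold changes (homozygous over heterozygous, x axis, bars are SE) of the 73 tested chaperone genes by family, with genes whose 2 homozygous libraries were both highest in red, both lowest in blue and overlapping in grey; the dotted line is the median of all genes tested. Both mitochondrial chaperonin points, and all TRiC points except that of cct8, are blue and left of 0, while type B J-domain genes lie on both sides.

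The bulk of chaperone messenger RNA came from 3 genes. By mean RPKM (CPM per kilobase of exon), hsp90ab1, the constitutive form of HSP90, ranked 123 of all 14781 genes at 1748 RPKM. The constitutive HSP70 gene hspa8, whose protein also strips clathrin from vesicles, ranked 129 at 1548 RPKM. The third was fkbp5, an HSP90-bound immunophilin gene that glucocorticoid receptors induce, at 343 RPKM and rank 285. Together these 3 held 80.7% and 76.4% of all member counts in homozygous libraries and 71.3% and 67.9% in heterozygous libraries.

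The members took 1.499% and 1.38% of all counts in homozygous libraries, against 1.18% and 0.947% in heterozygous libraries (95% exact Clopper-Pearson intervals of 1.489% to 1.508% and 1.369% to 1.384%, against 1.168% to 1.185% and 0.941% to 0.953%, counting error only). The homozygous shares were the higher pair. Among counts outside the pancreas list the homozygous pair was again higher, at 1.56% and 1.38% in homozygous and 1.19% and 1.35% in heterozygous libraries, with homozygous replicate 2 close to heterozygous replicate 2. Without hsp90ab1, hspa8 and fkbp5 the shares overlapped, at 0.289% and 0.325% in homozygous and 0.338% and 0.304% in heterozygous libraries.

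Of the HSF genes, hsf1, for the master regulator of the heat shock response, was at 2.96 and 6.09 CPM (the count scaled to library size by edgeR's TMM) in homozygous and 1.88 and 2.41 CPM in heterozygous libraries. Both homozygous libraries were higher, on 11 to 66 counts a library (log2 fold change 1.08 ± 0.68, SE; edgeR adjusted p = 0.708), and the value was 0.46 without homozygous replicate 2. The related hsf2 overlapped, at 6.52 and 2.58 CPM in homozygous and 2.90 and 5.58 CPM in heterozygous libraries. Both hsf4, which in mammals acts in the lens, and hsf5 had 0 counts in all libraries.

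The stress-inducible HSP70 genes were low and did not share one order of libraries. hsp70l was at 18.95 and 13.9 CPM in homozygous and 12.5 and 3.39 CPM in heterozygous libraries, with both homozygous libraries above, homozygous replicate 2 close to heterozygous replicate 1, and heterozygous replicate 2 far below. Its log2 fold change was 1.06 ± 0.67 (SE; edgeR adjusted p = 0.708), 0.39 without heterozygous replicate 2 and 2.30 without heterozygous replicate 1. hsp70.1 overlapped, at 10.8 and 9.14 CPM in homozygous and 16.7 and 2.95 CPM in heterozygous libraries (0.03 ± 0.80). Its value was 1.78 without heterozygous replicate 1 and -0.75 without heterozygous replicate 2. Within each library hsp70l stood at 0.00450 and 0.00370 of the RPKM of hspa8 in homozygous guts and 0.00333 and 0.00134 in heterozygous guts. The endothelial HSP70 gene hspa12b rested on 2 to 62 counts a library, with heterozygous replicate 2 alone high, and overlapped (-1.71 ± 1.29). The genes hsp70l and hsp70.1 are close copies, so reads may have been split or lost between them.

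hspa8 itself was at 4273 and 3819 CPM in homozygous and 3793 and 2575 CPM in heterozygous libraries, higher in the homozygous pair by a margin smaller than the spread between the heterozygous libraries (0.35 ± 0.69). The mitochondrial HSP70 gene hspa9 overlapped, at 67.5 and 119.9 CPM in homozygous and 123 and 112 CPM in heterozygous libraries.

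One pair of genes for ribosome-bound chaperones was lower in both homozygous libraries. hspa14, whose human protein forms the ribosome-associated complex with DNAJC2, was at 24.7 and 19.2 CPM in homozygous and 36.5 and 35.7 CPM in heterozygous libraries, with no overlap (log2 fold change -0.72 ± 0.34, SE; edgeR adjusted p = 0.699). Its partner gene dnajc2 was at 10.2 and 10.15 CPM in homozygous and 29.7 and 19.7 CPM in heterozygous libraries, 2.42-fold lower (-1.27 ± 0.39; edgeR adjusted p = 0.699). dnajc21, whose human protein acts in the maturation of ribosomal subunits, was at 8.29 and 3.51 CPM in homozygous and 17.2 and 9.96 CPM in heterozygous libraries (-1.21 ± 0.59). For all 3 genes heterozygous replicate 1 was the highest library.

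The member with the smallest unadjusted p belongs to HSP110, the exchange factor family of HSP70. hspa4a (chromosome 21, 43142321 to 43176073, minus strand, 19 exons in danRer10) had 25.8 and 31.2 CPM in homozygous libraries, against 84.5 and 88.8 CPM in heterozygous libraries. Each group was tight, and the means of 28.5 ± 3.83 and 86.7 ± 3.07 CPM (SD, n = 2 each) lie 3.04-fold apart. The log2 fold change was -1.60 ± 0.35 (SE; edgeR adjusted p = 0.699), and it stayed between -1.75 and -1.45 with any library left out. DESeq2 called it at an adjusted p of 0.0487, within a range of 0.0487 to 0.999 over the alternatives. Its sister gene hspa4b overlapped, at 78.2 and 106 CPM in homozygous and 105 and 88.3 CPM in heterozygous libraries (-0.07 ± 0.39). The ratio of hspa4a to hspa4b in RPKM, which library scaling cannot move, was 0.301 and 0.269 in homozygous and 0.735 and 0.919 in heterozygous libraries.

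**Figure D2:**
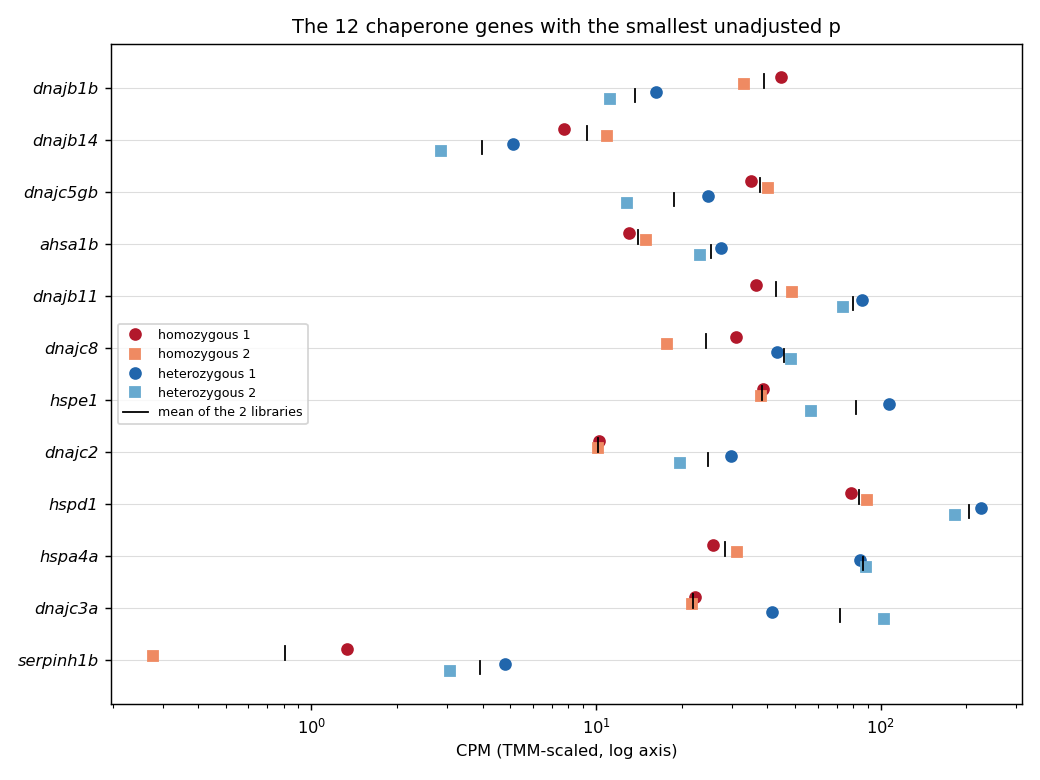
CPM on a log axis in each library (red and orange homozygous, blue and light blue heterozygous; black ticks are means of 2 libraries) for the 12 members with the smallest unadjusted p, from the highest log2 fold change at the top. In dnajb1b, dnajb14 and dnajc5gb the homozygous points lie right of the heterozygous ones, and in the other 9 genes left of them; hspa4a lies at 25.8 and 31.2 CPM in homozygous and 84.5 and 88.8 CPM in heterozygous libraries.

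The HSP90 genes did not share a direction. hsp90ab1 overlapped, at 6079 and 4334 CPM in homozygous and 4745 and 3715 CPM in heterozygous libraries (log2 fold change 0.30 ± 0.73, SE). The alpha form hsp90aa1.2 was at 28.1 and 6.92 CPM in homozygous and 33.1 and 41.35 CPM in heterozygous libraries; both homozygous libraries were lower, replicate 2 far more so (-1.10 ± 0.68, and -0.41 without that library). It had only 0.00518 and 0.00179 of the RPKM of hsp90ab1 in homozygous guts and 0.00781 and 0.0124 in heterozygous guts. Next to it on chromosome 20 lies hsp90aa1.1, which zebrafish striated muscle needs to fold myosin. It had 0 and 0 counts in homozygous and 1 and 24 in heterozygous libraries, too few to be tested, and heterozygous replicate 2 is the library with the most striated muscle transcripts; the part of muscle in this value was not tested.

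Among HSP90 co-chaperone genes, 5 of 6 tested had log2 fold changes below 0, with a family median of -0.59, which was -0.15 without heterozygous replicate 1. ahsa1b, for the activator of the HSP90 ATPase, was at 13.03 and 14.95 CPM in homozygous and 27.5 and 23.2 CPM in heterozygous libraries, a separation wider than the spread within either group (1.81-fold lower, -0.85 ± 0.35, SE; edgeR adjusted p = 0.699). stip1, for the adaptor Hop that hands clients from HSP70 to HSP90, was at 59.7 and 59.0 CPM in homozygous and 102 and 72.3 CPM in heterozygous libraries (-0.56 ± 0.38). ptges3b, a gene for the HSP90 cochaperone p23, was at 44.0 and 46.8 CPM in homozygous and 84.8 and 54.9 CPM in heterozygous libraries (-0.62 ± 0.38). For stip1 and ptges3b the gap to heterozygous replicate 2 was small and heterozygous replicate 1 stood highest; without that library the values were -0.25 and -0.24. The second p23 gene, ptges3a, overlapped, and its value of -0.69 became 0.10 without heterozygous replicate 1.

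The immunophilin genes overlapped. fkbp5 was at 1092 and 923 CPM in homozygous and 553 and 1016 CPM in heterozygous libraries (log2 fold change 0.36 ± 0.58, SE), with heterozygous replicate 1 alone low. fkbp4 was at 75.2 and 92.6 CPM in homozygous and 113 and 89.9 CPM in heterozygous libraries (-0.27 ± 0.38).

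J-domain genes are the largest group, with 41 members of which 33 were tested. In type B, 4 of 9 tested genes had both homozygous libraries highest, beside 19.9% of all tested genes, and 2 had both lowest, beside 19.3%. dnajb1b (chromosome 1, 55068227 to 55072346, minus strand, 3 exons), a canonical stress-inducible partner of HSP70, was at 44.7 and 33.1 CPM in homozygous and 16.2 and 11.2 CPM in heterozygous libraries. The groups were well apart, 2.85-fold (1.51 ± 0.39, SE; edgeR adjusted p = 0.699), and the value stayed between 1.25 and 1.83 with any library left out. It was the 1 member above its heterozygous level at an unadjusted p under 0.05. The sister gene dnajb1a went the other way in value, at 3.70 and 8.77 CPM in homozygous and 14.7 and 7.77 CPM in heterozygous libraries, with overlap (-0.83 ± 0.61). The RPKM ratio of dnajb1b to dnajb1a was 10.9 and 3.40 in homozygous libraries and 0.994 and 1.29 in heterozygous libraries.

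Most immediate early genes, which cells switch on within minutes of a stimulus, were higher in both homozygous libraries, as were hsf1, hsp70l and dnajb1b. The stress-inducible hsp70.1 and dnajb1a were not, and overlapped (0.03 and -0.83). Other members had both homozygous libraries lowest, among them hspa4a, hspd1, hspe1, hsp90aa1.2, ahsa1b and stip1, with log2 fold changes of -1.60 (hspa4a) to -0.56 (stip1). Of all 73 tested members, 12 (16.4%, beside 19.9% of all tested genes) had both homozygous libraries highest and 25 (34.2%, beside 19.3%) both lowest. Of 19 tested immediate early genes, 14 had both homozygous libraries highest, beside 19.9% of all tested genes, and 1 both lowest, beside 19.3%. The immediate early list took 0.353% and 0.232% of counts in homozygous and 0.115% and 0.105% in heterozygous libraries, and its median log2 fold change was 1.11. DESeq2 called 3 genes of this list higher and 0 lower, beside 0.742% of all genes it adjusted, and edgeR called 0. The part of immediate early genes in the chaperone values was not tested.

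dnajb14, for a J-domain protein anchored in the ER membrane with its J domain in the cytosol, was at 7.70 and 10.9 CPM in homozygous and 5.12 and 2.84 CPM in heterozygous libraries, 2.35-fold higher (log2 fold change 1.23 ± 0.54, SE; edgeR adjusted p = 0.699). Its relative dnajb12a was higher by a small margin, at 37.2 and 34.3 CPM in homozygous and 28.0 and 34.1 CPM in heterozygous libraries (0.20 ± 0.33). The homozygous libraries of dnajb2, known in mammals for neuronal clients, were at 7.55 and 11.1 CPM, and the heterozygous ones at 3.59 and 6.02 CPM (0.95 ± 0.51).

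Type A genes, for the general cytosolic and mitochondrial partners of HSP70, had log2 fold changes of -0.43 (dnaja1) to 0.46 (dnaja3a). dnaja2, the most abundant J-domain gene at 90.7 RPKM, was at 185 and 169 CPM in homozygous and 198 and 168 CPM in heterozygous libraries, so the groups overlapped (-0.05 ± 0.40, SE). dnaja1 and dnaja2l also overlapped, and the log2 fold changes of all 3 genes changed sign without heterozygous replicate 1. The mitochondrial dnaja3a was at 43.2 and 43.0 CPM in homozygous and 38.2 and 24.7 CPM in heterozygous libraries, higher by less than the spread between the heterozygous pair (0.46 ± 0.37). Its copy dnaja3b had 0 counts in all libraries.

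Of 20 tested type C genes, 13 had log2 fold changes below 0, with both homozygous libraries lowest in 6 (30%, beside 19.3% of all tested genes) and highest in 2 (10%, beside 19.9%). dnajc8, for a J-domain protein of the spliceosome, was at 31.0 and 17.7 CPM in homozygous and 43.4 and 48.25 CPM in heterozygous libraries (1.89-fold lower, -0.92 ± 0.40, SE; edgeR adjusted p = 0.699). In the other direction dnajc5gb, of the cysteine string protein family that acts on secretory vesicles, was at 35.1 and 40.1 CPM in homozygous and 24.75 and 12.8 CPM in heterozygous libraries (2.01-fold higher, 1.01 ± 0.43; edgeR adjusted p = 0.699). The HSP70 and HSP90 cofactor gene dnajc7 and dnajc11, for a protein of mitochondrial membranes, overlapped, and both changed sign without heterozygous replicate 1. Of the other type C genes tested, dnajc4, dnajc5ga, dnajc9, dnajc17, dnajc18, dnajc24, dnajc25 and dnajc28 all overlapped between the groups, with log2 fold changes of -0.45 (dnajc9, whose human protein is a histone chaperone) to 0.52 (dnajc25).

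BAG genes, a family that includes exchange factors that release clients from HSP70, gave 3 log2 fold changes above 0 and 3 below, with a median near 0. bag6, which guards tail-anchored and misfolded proteins, was the most abundant at 15.4 RPKM and overlapped, at 56.0 and 76.7 CPM in homozygous and 67.4 and 72.7 CPM in heterozygous libraries. bag4, known as a silencer of death receptors, was at 9.62 and 11.3 CPM in homozygous and 17.9 and 13.9 CPM in heterozygous libraries (-0.60 ± 0.38, SE; edgeR adjusted p = 0.708). bag1 was between 8.53 and 9.63 CPM in every library. bag2, on 3 to 35 counts a library, overlapped, and its value of -0.75 became 1.33 without heterozygous replicate 2. bag3, the partner of hspb8 in clearing aggregates, overlapped at 6.22 and 13.1 CPM in homozygous and 8.19 and 7.33 CPM in heterozygous libraries, and bag5 was higher by a small margin, at 8.14 and 7.38 CPM in homozygous and 6.15 and 6.67 CPM in heterozygous libraries (0.27 ± 0.43).

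TRiC subunits had slightly lower values in homozygous guts. Of 7 tested subunit genes, 6 had the homozygous pair lowest, beside 19.3% of all tested genes, by small amounts, with log2 fold changes of -0.14 to -0.52. cct5 showed the largest fold change, at 119.5 and 127 CPM in homozygous and 169 and 184 CPM in heterozygous libraries (1.43-fold lower, -0.52 ± 0.39, SE, edgeR adjusted p = 0.738). cct3 was at 122 and 126 CPM in homozygous and 158 and 172 CPM in heterozygous libraries. cct4 was at 182 and 186 CPM in homozygous and 233 and 235 CPM in heterozygous libraries, so the replicates differed by far less than the groups.

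The most abundant subunit gene, cct6a, showed a narrow gap, at 249 and 252 CPM in homozygous and 272 and 280.3 CPM in heterozygous libraries. cct8 was the exception and overlapped, at 222 and 177 CPM in homozygous and 181 and 199 CPM in heterozygous libraries. The log2 fold changes of cct3, cct4, cct5, cct6a, cct7 and tcp1 were below 0 with each library left out in turn, and that of cct8 changed sign. The SE of each gene, 0.38 to 0.42, rests on a spread that edgeR shares across genes, and no subunit had an unadjusted p under 0.05. The subunits assemble in equal numbers, and in RPKM they lay between 63.1 (tcp1) and 132 (cct6a) in homozygous guts and between 75.1 (cct7) and 145 (cct6a) in heterozygous guts. cct2 is annotated on an unplaced scaffold and had 0 counts in all libraries, so that subunit was not measured.

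**Figure D3:**
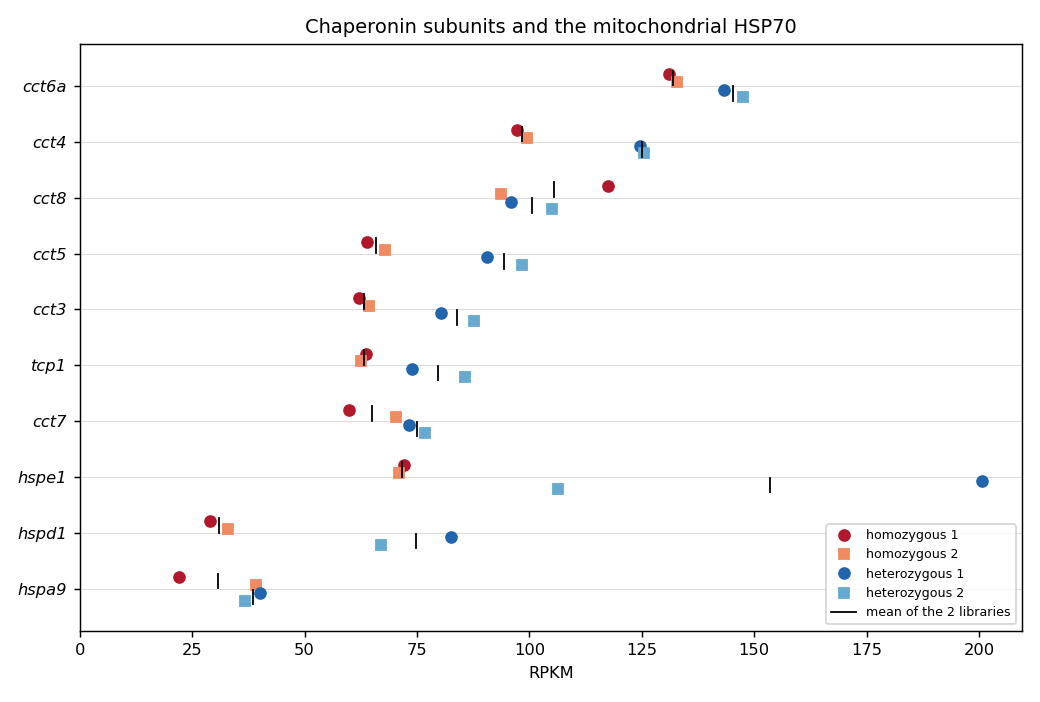
RPKM in each library (red and orange homozygous, blue and light blue heterozygous; black ticks are means of 2 libraries) for the 7 TRiC subunit genes with counts, the mitochondrial chaperonin genes hspe1 and hspd1 and the mitochondrial HSP70 gene hspa9. The homozygous points lie left of the heterozygous ones for every gene except cct8 and hspa9, with the widest gaps for hspd1 and hspe1.

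Both mitochondrial chaperonin genes had lower values in the homozygous pair, without passing the test. The 7 tested members assigned to mitochondria had a median log2 fold change of -0.32, with 5 below 0 and 2 above. hspd1, for the ring protein HSP60, was at 78.8 and 89.7 CPM in homozygous and 225 and 183 CPM in heterozygous libraries, 2.42-fold lower (log2 fold change -1.28 ± 0.40, SE; edgeR adjusted p = 0.699). hspe1, for its lid HSP10, was at 38.5 and 37.9 CPM in homozygous and 107 and 56.8 CPM in heterozygous libraries, 2.14-fold lower (-1.10 ± 0.43; edgeR adjusted p = 0.699) and -0.54 without heterozygous replicate 1. Neither gene's groups overlapped, and heterozygous replicate 1 was highest for both. The genes lie head to head on chromosome 9, hspd1 at 32475860 to 32489970 on the minus strand and hspe1 at 32490803 to 32493828 on the plus strand, with 832 bases between them, and they share a bidirectional promoter in mammals.

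The ratio of hspe1 to hspd1 in RPKM overlapped between groups, at 2.50 and 2.16 in homozygous and 2.43 and 1.59 in heterozygous libraries. That of hspd1 to hspa9, which works in the same matrix, did not, at 1.30 and 0.837 in homozygous and 2.06 and 1.83 in heterozygous libraries. The import motor gene dnajc19 overlapped, at 26.2 and 19.2 CPM in homozygous and 45.2 and 24.2 CPM in heterozygous libraries, and its relative dnajc15 was higher in both homozygous libraries, at 7.70 and 7.38 against 6.15 and 3.72 CPM in heterozygous libraries (0.62 ± 0.50, SE).

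**Figure D4:**
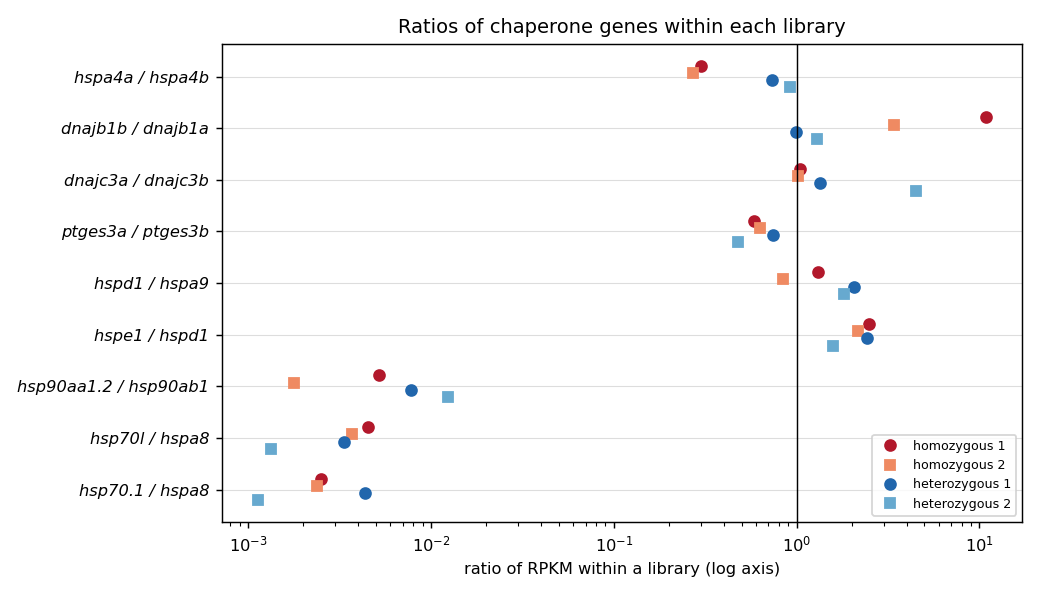
Ratios of RPKM between pairs of chaperone genes within each library, on a log axis (red and orange homozygous, blue and light blue heterozygous), for pairs chosen after values were seen; the line marks a ratio of 1. The groups do not overlap for hspa4a over hspa4b (0.269 to 0.301 homozygous, 0.735 to 0.919 heterozygous) or dnajb1b over dnajb1a (3.40 to 10.9 homozygous, 0.994 to 1.29 heterozygous), and overlap for ptges3a over ptges3b.

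Members were assigned to the ER after values were seen, so what follows is a description and not a test. All 9 tested ER members had log2 fold changes below 0, with a median of -0.90. Both homozygous libraries were lowest in 6, beside 19.3% of all tested genes, and 3 overlapped. The assignment left out dnajc25, a gene for an ER membrane protein, which overlapped at 0.52 ± 0.94 (SE), so not every ER gene was below 0. The 57 tested members assigned to neither the ER nor mitochondria, dnajc25 among them, had a median of -0.07, which was -0.32 without homozygous replicate 2. Without heterozygous replicate 2 the median of the ER members was -0.37, and hspa13, dnajc10 and serpinh1a turned to 0.09, 0.08 and 0.05. dnajc3a, whose protein limits the kinase PERK and helps the ER HSP70, was at 22.2 and 21.7 CPM in homozygous and 41.5 and 103 CPM in heterozygous libraries, 3.29-fold lower (-1.72 ± 0.52, SE; edgeR adjusted p = 0.699) and -0.92 without heterozygous replicate 2. Its copy dnajc3b showed a smaller gap, at 39.1 and 39.2 CPM in homozygous and 57.0 and 42.1 CPM in heterozygous libraries (-0.34 ± 0.35). hspa13 and dnajc10, for an ER HSP70 and an ER reductase, overlapped. dnajb11, for the ER cofactor ERdj3, was at 36.4 and 49.0 CPM in homozygous and 85.9 and 73.6 CPM in heterozygous libraries, with no overlap (-0.90 ± 0.37; edgeR adjusted p = 0.699).

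Pancreas acinar cells are rich in ER, and heterozygous replicate 2 held the most pancreas transcript. For dnajc3a, dnajc1 and dnajb9b that library was the highest, and for dnajb11 and dnajc3b it was heterozygous replicate 1, where the pancreas list took 1.32% of counts. Without heterozygous replicate 2 the log2 fold changes were -1.01 for dnajb11, -0.26 for dnajc1 and -0.37 for dnajb9b, beside -0.90, -0.63 and -1.23 with all libraries. The part of pancreas in these values was not tested. A list of ER chaperones and ER stress regulators outside the name rule, of which 5 of 18 are transcription factors, had a median of -0.86, which was -0.78 without that library and -0.54 without heterozygous replicate 1. In that list 15 of 18 tested genes had log2 fold changes below 0. hspa5, the gene of the main ER HSP70, was at 150.1 and 98.5 CPM in homozygous and 343 and 565 CPM in heterozygous libraries. DESeq2 called hspa5 lower (DESeq2 adjusted p = 0.0387), the 1 gene of that list it called, and edgeR did not (edgeR adjusted p = 0.699). DESeq2 called 0.742% of all genes it adjusted. manf, a secreted ER stress gene, was at 17.6 and 12.8 CPM in homozygous and 34.6 and 44.9 CPM in heterozygous libraries. ddit3, the transcription factor gene CHOP, was the reverse, at 234 and 110.2 CPM in homozygous and 51.7 and 28.4 CPM in heterozygous libraries.

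The genes of the collagen chaperone HSP47 were sparse. serpinh1b had 9 and 3 counts in homozygous and 28 and 28 in heterozygous libraries (1.33 and 0.277 CPM against 4.78 and 3.06 CPM; log2 fold change -2.32 ± 0.97, SE; edgeR adjusted p = 0.699). serpinh1a was at 4.15 and 3.32 CPM in homozygous and 3.59 and 17.7 CPM in heterozygous libraries, so heterozygous replicate 2 alone was high, and its value of -1.52 became 0.05 without that library. The collagen gene col1a1a was highest in the same library, at 322 CPM against 36.8 to 65.9 CPM in the other 3.

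Most small heat shock protein genes had few or no counts. Of 11, hspb3 and cryaba had 0 counts in all libraries, 7 had too few to be tested, and 2 were tested. hspb1, the actin-protecting HSP27 gene, was at 8.14 and 3.97 CPM in homozygous and 6.999 and 30.5 CPM in heterozygous libraries. hspb8, which pairs with BAG3 in autophagy of aggregates, was at 3.26 and 2.77 CPM in homozygous and 3.93 and 10.9 CPM in heterozygous libraries. In both, heterozygous replicate 2 alone was high, and without it the log2 fold changes were -0.23 and -0.39, against -1.65 and -1.31 with all libraries. The striated muscle genes mylpfa and actc1b were highest there too, at 100.2 and 84.6 CPM, against at most 4.98 CPM in any other library. Of 6 tested striated muscle genes, 4 had log2 fold changes below 0 and 2 above. Smooth muscle genes took their largest share in homozygous replicate 1, at 0.290% of counts against 0.144% in heterozygous replicate 2. The part of muscle in the small heat shock values was not tested.

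The 2 genes matched by name alone were low: tcp11l1 was at 4.15 and 3.51 CPM in homozygous and 3.24 and 2.41 CPM in heterozygous libraries, and tcp11l2 overlapped, with 60 and 147 counts in homozygous and 3 and 137 in heterozygous libraries.

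In all, 24 of the 97 members did not pass the filter on low counts. Of these, 6 had 0 counts throughout (hsf4, hsf5, dnaja3b, cct2, cryaba and hspb3), which for the 4 placed on chromosomes allows up to 0.277 to 0.512 CPM, the level of 3 counts in a library. The records of cct2 and hsf5 lie on unplaced scaffolds, and their 0 gives no limit here. In 14 of the other 18 the highest library was heterozygous replicate 2. That library also had the most counts and the most genes detected (12486, against 11059 to 11991 in the others). The share over all untested genes was not computed, so the 14 are not a result about chaperone genes. Among these 18 members the largest value was that of hsc70, annotated apart from hspa8, with 2 and 1 counts in homozygous and 2 and 73 in heterozygous libraries.

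Partners of the chaperone cycle outside the name pattern, from a list of HSP70 and HSP90 cofactors, gave values of both signs: 14 of 23 tested had log2 fold changes below 0, with a median of -0.19 (-0.03 without heterozygous replicate 1, -0.30 without homozygous replicate 1), and 0 were called by edgeR in either direction. nudc, an HSP90 cofactor gene of the dynein pathway, was at 36.9 and 29.2 CPM in homozygous and 89.8 and 64.1 CPM in heterozygous libraries (-1.22 ± 0.38, SE; edgeR adjusted p = 0.699). The gene of Hikeshi, which carries HSP70 into the nucleus during heat stress and is listed as zgc:110091, was at 14.8 and 13.3 CPM in homozygous and 33.5 and 24.0 CPM in heterozygous libraries (-1.03 ± 0.37). Of 15 tested prefoldin and tubulin folding genes, 11 were below 0, 5 with both homozygous libraries lowest, beside 19.3% of all tested genes, and 0 with both highest, beside 19.9%. Their median of -0.26 was -0.12 without homozygous replicate 2 and -0.47 without homozygous replicate 1. Tubulins are clients of TRiC, and 2 tubulin genes were among the smallest p of that list, both lower in the homozygous pair without passing the test: tuba8l4 was at 234 and 200.3 CPM in homozygous and 519 and 572 CPM in heterozygous libraries (-1.33 ± 0.46) and tubb4b was at 259.9 and 262 CPM in homozygous and 454 and 423 CPM in heterozygous libraries (-0.75 ± 0.44). No gene of either list passed the test.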

How the data were processed

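Per the file headers, the authors counted read pairs per gene with featureCounts 1.5.2 (paired, reverse strand, UCSC annotation of danRer10), and deposited whole-number counts for 14781 genes; which aligner was used is not stated in what was at hand. Per the labels' protocols, libraries were stranded and oligo-dT selected. A second deposited table of 76 genes lists 0 members and was not used.

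Low genes were dropped by filterByExpr (at least 10 counts, 15 in total), which left 9701; after TMM scaling, genotype alone was fitted and tested by quasi-likelihood in edgeR 4.0.16 under R 4.3.3. P-values were Benjamini-Hochberg adjusted over all tested genes and called at 0.05, and SE is that implied by the F statistic. RPKM is TMM-scaled CPM per kilobase of exon. The fit was tested on simulated data.

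Members and lists were chosen with earlier results of these data known. Of 231 list genes, 25 were not found and 10 matched by synonym (RefSeq names of GRCz12tu). Named members are, per family, up to 3 of highest mean CPM and up to 2 of smallest p, the 12 of smallest p across families, hsf1 and hsf2; from other lists, up to 3 of smallest p. Compartments and gene pairs, and all members named beyond that rule, were chosen after values were seen. Near-identical copies (hsp70.1 and hsp70l, hspa8 and hsc70, hsp90aa1.1 and hsp90aa1.2) are uncertain. A planned search of promoters was not run for lack of sequence. Alternatives were DESeq2 (1.42.0) size factors and Wald test, other count filters, the pancreas list left out, the replicate number as a block and each library left out. Depth limits precision, and intervals and floors cover counting error only.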

Additional observations from a re-analysis of the deposited data

How the results depend on the processing

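DESeq2's Wald test called 58 genes, of which 1 was a chaperone member (hspa4a), and with each library left out edgeR called 0 to 45 genes, the 45 without heterozygous replicate 1 and 0 of them members. Other scaling, other count filters and leaving out the pancreas list called 0 genes. The replicate number as a block also called 0; the deviations of same-numbered libraries correlated at 0.06 over genes, so the numbers were not taken to pair the fish. The members' median log2 fold change ranged from -0.35 to -0.14 over all alternatives. An alternative added after seeing the data recounted members with 1 library left out, where fewer libraries separate more easily. Those with the homozygous libraries lowest numbered 32 to 38. They were 38 (52.1%, beside 37.1% of all tested genes) without heterozygous replicate 2 and 32 (43.8%, beside 37.7%) without heterozygous replicate 1. Those with the homozygous libraries highest numbered 18 to 22. They were 22 (30.1%) without heterozygous replicate 2 (beside 38.1%) or homozygous replicate 2 (beside 30.4%). Without heterozygous replicate 1 they were 18 (24.7%, beside 35.2%). Of 46 named members, 13 changed sign with a library left out and 33 did not; 0 changed sign under the other alternatives. Values of members under about 10 CPM rest on few counts.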

Other observations

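Genes of HSF regulators and of stress proteins often induced beside chaperones gave values of both signs, with 8 of 14 tested log2 fold changes above 0 and 6 below. hmox1a, the heme oxygenase gene, was at 0.444 and 1.38 CPM in homozygous and 3.24 and 7.22 CPM in heterozygous libraries. txn, a thioredoxin gene, was at 8.59 and 11.8 CPM in homozygous and 55.6 and 14.2 CPM in heterozygous libraries, with heterozygous replicate 1 alone far above the others, and gadd45ba, a growth arrest gene, had the same order of highest library, at 40.6 and 77.8 CPM in homozygous and 302 and 92.5 CPM in heterozygous libraries. The list's median log2 fold change was 0.31, but -0.15 without homozygous replicate 1 and -0.02 without heterozygous replicate 2.

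Genes of protein degradation and aggregate handling gave 11 of 15 log2 fold changes below 0 (median -0.37), with both homozygous libraries lowest in 7, beside 19.3% of all tested genes, and highest in 2, beside 19.9%; the median was -0.15 without heterozygous replicate 1 and -0.57 without heterozygous replicate 2. timm44, for the mitochondrial import subunit that anchors hspa9, was at 15.4 and 14.7 CPM in homozygous and 31.4 and 24.1 CPM in heterozygous libraries. The proteasome genes psmd4a and usp14 were lower in both homozygous libraries as well, at 27.8 and 31.2 CPM against 68.5 and 39.3 CPM in heterozygous libraries and at 43.8 and 41.0 CPM against 79.9 and 58.9 CPM in heterozygous libraries. No gene of these lists passed edgeR's test over all genes (adjusted p of at least 0.699).

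Among markers of other cells, smooth muscle genes took 0.290% and 0.0400% of counts in homozygous and 0.0261% and 0.144% in heterozygous libraries, and red blood cell genes 0.0105% and 0.00744% in homozygous and 0.00184% and 0.0637% in heterozygous libraries. Genes of germ cells and cilia took at most 0.000260% of counts in any library, and 0 of 11 were tested.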
